A study of Mus musculus with 12 samples.

Results

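Genes of the DNA damage response and of DNA repair were followed in mouse salivary tumors of 3 p53 genotypes. The group was set as 39 gene names, listed by their roles, and the rule uses no measured value. Every probe set annotated with the symbol of a listed gene alone was taken. Of the 39 genes, 37 were measured, by 62 probe sets, of 12393 genes and 22626 probe sets tested in all. Fancd2 and Lig4 had no such probe set. Of the 37 genes, 22 had 1 probe set, 9 had 2, 3 had 3, 2 had 4 and 1 had 5. A probe set is a group of short oligonucleotides on the array that reads a transcript, and where 1 value per gene was needed the probe set with the highest mean over the 12 tumors was used.

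The arrays held RNA from 4 tumors of MMTV-ras/p53R172H/R172H mice (MT1 to MT4), 4 of MMTV-ras/p53-/- mice (KO1 to KO4) and 4 of MMTV-ras/p53+/+ mice (WT1 to WT4), 1 array per tumor. MT mice carried the p53 R172H substitution on both alleles, KO mice had no functional p53 allele and WT mice had wild-type p53. All 12 tumors arose in adult mice that carried an Hras oncogene under the mouse mammary tumor virus promoter, which is active in salivary and mammary epithelium, so the WT group is a tumor group and no normal gland was measured. The ages of these 12 mice were not given in the sources used here. The study reports a much later onset of salivary tumors in p53+/+ mice than in the other genotypes, so age may run with genotype. The mice were of a mixed C57BL/6 and BALB/c background, to which the R172H allele came from C57BL/6 mice, and the share of each strain in a tumor's mouse was not given in the sources used here. RNA came from frozen tumor sections, kept where histology showed mostly homogeneous tumor mass, and no cell type was isolated from them. The sources do not say whether each tumor came from a different mouse, so that a p-value speaks only for the spread among the 12 tumors at hand.

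Cells read DNA damage through sensors that bind the break, such as the MRN complex, and through the kinases Atm and Atr, which pass the signal to Chek1, Chek2 and p53. Repair then follows the kind of lesion. Double-strand breaks are rejoined directly by end joining or copied from the sister chromatid by homologous recombination, while altered single bases, bulky adducts and mispaired bases are cut out by base excision, nucleotide excision and mismatch repair. Wild-type p53 halts the cell cycle when this signal is on, and tumors without it can go on dividing with damaged DNA.

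Values are log2 expression levels, so that a difference of 1 is a doubling, and are compared within a probe set, not between probe sets. Each probe set was tested with limma, a linear model that moderates the spread between tumors across all probe sets, and p-values were adjusted after Benjamini and Hochberg over the 22626 probe sets, with 0.05 as the threshold. Differences run as KO minus WT, MT minus WT and MT minus KO, with their standard error (SE). The first and the second share WT tumors, and each shares a group with the third, so they are not independent of one another.

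The KO label was checked on Trp53 itself, whose 2 probe sets lay at 5.85 to 6.36 and 6.37 to 6.89 in KO tumors, below every MT and WT tumor. These probe sets were taken from the study's list of genes that differ between the genotypes in these same tumors. Some separation was thus set by how they were chosen, and the check is not an independent one. Among 16 measured p53 target genes outside repair, 6 passed the test as lower in KO than in WT tumors, where 2.69% of all genes did. In MT against WT tumors 2 passed as lower, where 0.202% of all genes did. None passed as higher, though 4 had a higher mean in KO tumors and 3 in MT tumors than in WT tumors. Array controls and marker lists set some tumors apart before any result. The poly-A controls, which are added to the RNA before labeling, were bright in 3 tumors, MT1, MT2 and MT3 (means of 10.4 to 10.6), and dim in the remaining 9, among them MT4 (3.98 to 4.23). WT1 held more of the 13 lymphocyte markers, with a mean of 7.75 against 5.28 to 5.69 in the other 11 tumors. The 12 markers of salivary acini and demilunes averaged 9.18 to 10.04 in MT tumors, 8.93 to 9.95 in KO tumors and 10.71 to 11.44 in WT tumors, and 10 of the 12 had a lower mean in KO than in WT tumors, 2 of them past the threshold. The 8 markers of luminal epithelium averaged 10.20 to 10.92 in MT tumors, 10.42 to 11.04 in KO tumors and 9.20 to 10.69 in WT tumors. In tissue with mixed cells, fewer cells of a type and less RNA per cell cannot be told apart.

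The 3 members that passed the test at a probe set, all in KO against WT tumors, were Xrcc5, Trp53bp1 and Lig3. Their promoters are shown to place these genes in the genome. Each is the stretch from 250 bases before to 50 bases after the start of the gene, from RefSeq on the GRCm38.p6 assembly and written 5′ to 3′ along the gene, with a CCAAT box in capitals. The stretch of Xrcc5 is chr1:72307171-72307470 on the plus strand, that of Trp53bp1 chr2:121271358-121271657 on the minus strand and that of Lig3 chr11:82780859-82781158 on the plus strand.
Xrcc5: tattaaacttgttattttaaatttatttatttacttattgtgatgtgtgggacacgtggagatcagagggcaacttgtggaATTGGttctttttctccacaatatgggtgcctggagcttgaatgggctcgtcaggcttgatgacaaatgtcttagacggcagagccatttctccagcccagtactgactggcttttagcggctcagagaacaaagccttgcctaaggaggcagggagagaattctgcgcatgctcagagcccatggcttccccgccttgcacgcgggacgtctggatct
Trp53bp1: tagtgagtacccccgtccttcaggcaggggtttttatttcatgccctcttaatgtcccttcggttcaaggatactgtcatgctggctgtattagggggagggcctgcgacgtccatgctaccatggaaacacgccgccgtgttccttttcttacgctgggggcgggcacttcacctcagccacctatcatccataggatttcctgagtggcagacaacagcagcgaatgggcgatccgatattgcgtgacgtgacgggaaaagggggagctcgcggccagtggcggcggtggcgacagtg
Lig3: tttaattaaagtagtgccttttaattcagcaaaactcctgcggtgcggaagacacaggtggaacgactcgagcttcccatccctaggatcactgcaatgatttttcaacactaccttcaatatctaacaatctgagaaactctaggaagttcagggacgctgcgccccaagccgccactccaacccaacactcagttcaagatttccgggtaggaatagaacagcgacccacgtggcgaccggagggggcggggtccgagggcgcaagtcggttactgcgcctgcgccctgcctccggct
Motifs of cell cycle promoters were searched on both strands of these stretches: the E2F sites TTTGGCGC, TTTCGCGC and TTTCCCGC, the cell cycle homology sites TTTGAA and TTCGAA, and the CCAAT box CCAAT, bound by NF-Y. None of these motifs contains another, and TTCGAA reads the same on both strands. The Xrcc5 stretch held 1 CCAAT box, read on the opposite strand as ATTGG. The stretches of Trp53bp1 and Lig3 held none of the 6 motifs, which says only that these letters are not in these windows.

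RefSeq gave such a stretch for 34 of the 37 genes. An E2F site was in the stretch of 6 of the 34 genes (17.6%), against 2.12% of all 27025 genes of the table and 2.76% of its 17491 protein-coding genes. A CCAAT box was in 16 of the 34 (47.1%), against 41.1% of all genes. The p53 half-site RRRCWWGYYY (R is A or G, W is A or T, Y is C or T) was searched as well. It was in 1 of the 34 (2.94%), Fanca, against 9.55% of all genes. TTTGAA was found in 2 of 34 (20.2% of all genes) and TTCGAA in 2 of 34 (1.8% of all genes). The 6 genes with an E2F site were Bard1, Brca2, Chek2, Msh6, Topbp1 and Xrcc6, and 30 bases around each site are shown. Topbp1 held TTTCGCGC and the others TTTCCCGC. The site is in capitals, written along the gene, so that sites on the opposite strand appear as GCGGGAAA or GCGCGAAA.
Bard1, chr1:71103163-71103192 on the minus strand: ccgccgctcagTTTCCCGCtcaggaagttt
Brca2, chr5:150522442-150522471 on the plus strand: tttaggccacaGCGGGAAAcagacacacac
Chek2, chr5:110839820-110839849 on the plus strand: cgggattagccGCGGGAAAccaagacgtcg
Msh6, chr17:87975054-87975083 on the plus strand: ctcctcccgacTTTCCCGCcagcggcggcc
Topbp1, chr9:103305187-103305216 on the plus strand: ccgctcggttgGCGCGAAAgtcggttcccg
Xrcc6, chr15:82016312-82016341 on the plus strand: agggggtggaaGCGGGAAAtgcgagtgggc
None of these 6 genes passed the test between genotypes in any comparison. A match of letters is a description of the sequence and was not tested for binding.

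For most repair genes no difference between p53 genotypes passed the test. In KO against WT tumors 3 of 62 member probe sets passed the test (4.84%), where 4.57% of all probe sets did. Of these, 1 was higher and 2 were lower, against 1.94% and 2.64% of all probe sets, so the members were called about as often as any probe set. In MT against WT tumors none of the 62 passed, where 0.367% of all probe sets did (0.177% higher and 0.19% lower), and in MT against KO tumors none passed, where 0.00884% did. At an unadjusted p under 0.05 there were 14 of 62 member probe sets for KO against WT (22.6%, against 23.9% of all), 8 of 62 for MT against WT (12.9%, against 19.4%) and 4 of 62 for MT against KO (6.45%, against 9.58%). An ordinary t-test with the same adjustment called no member in any of the 3 comparisons, where it called 0.0442%, 0% and 0% of all probe sets for KO against WT, MT against WT and MT against KO. Limma with array weights called 6 members for KO against WT (9.68%, against 14.5% of all probe sets), 13 for MT against WT (21%, against 22% of all) and 0 for MT against KO (0.194% of all). Of the 62 member probe sets, 24 were dim, being above the median of all values in fewer than 4 of the 12 tumors, and among these were the called probe sets of Xrcc5 and Lig3.

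Below the threshold the list leaned one way. Over the 37 genes the median difference of KO minus WT was 0.22, with 26 genes above 0 and 11 below, while the median over all genes was -0.01. For MT minus WT the median was 0.15, with 27 above 0 and 10 below, and for MT minus KO it was -0.11, with 13 above and 24 below, against all-gene medians of -0.01 and 0.02. The mean was lowest in WT tumors for 21 of the 37 genes and highest in KO tumors for 21. Much of this lean went with WT2, which held the lowest level of all 12 tumors in 14 of the 37 genes. Without WT2 the medians were 0.12 for KO minus WT, with 23 genes above 0, and 0.05 for MT minus WT, with 21 above 0. The median of MT minus KO also moved with single tumors, to -0.18 without MT1 (9 genes above 0), -0.06 without MT2 (14 above 0), -0.07 without MT4 (14 above 0) and -0.06 without KO3 (11 above 0). The lean was not particular to the members, as mitosis genes shared part of it. Over 21 mitosis genes the median was 0.40 for KO minus WT (19 above 0) and -0.29 for MT minus KO (19 below 0). For MT minus WT it was 0.06 (13 above 0). Over 27 DNA replication genes the median was 0.0026 for KO minus WT (14 above 0) and 0.05 for MT minus KO (16 above 0). They did not share the lean there, and their MT minus WT was 0.09 (16 above 0). Other repair genes did not share it for KO minus WT either. Their medians were 0.06 (9 genes of damage signaling), -0.09 (10 of recombination and Fanconi), -0.03 (12 of end joining and synthesis across lesions) and -0.06 (19 of excision and reversal).

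**Figure D1:**
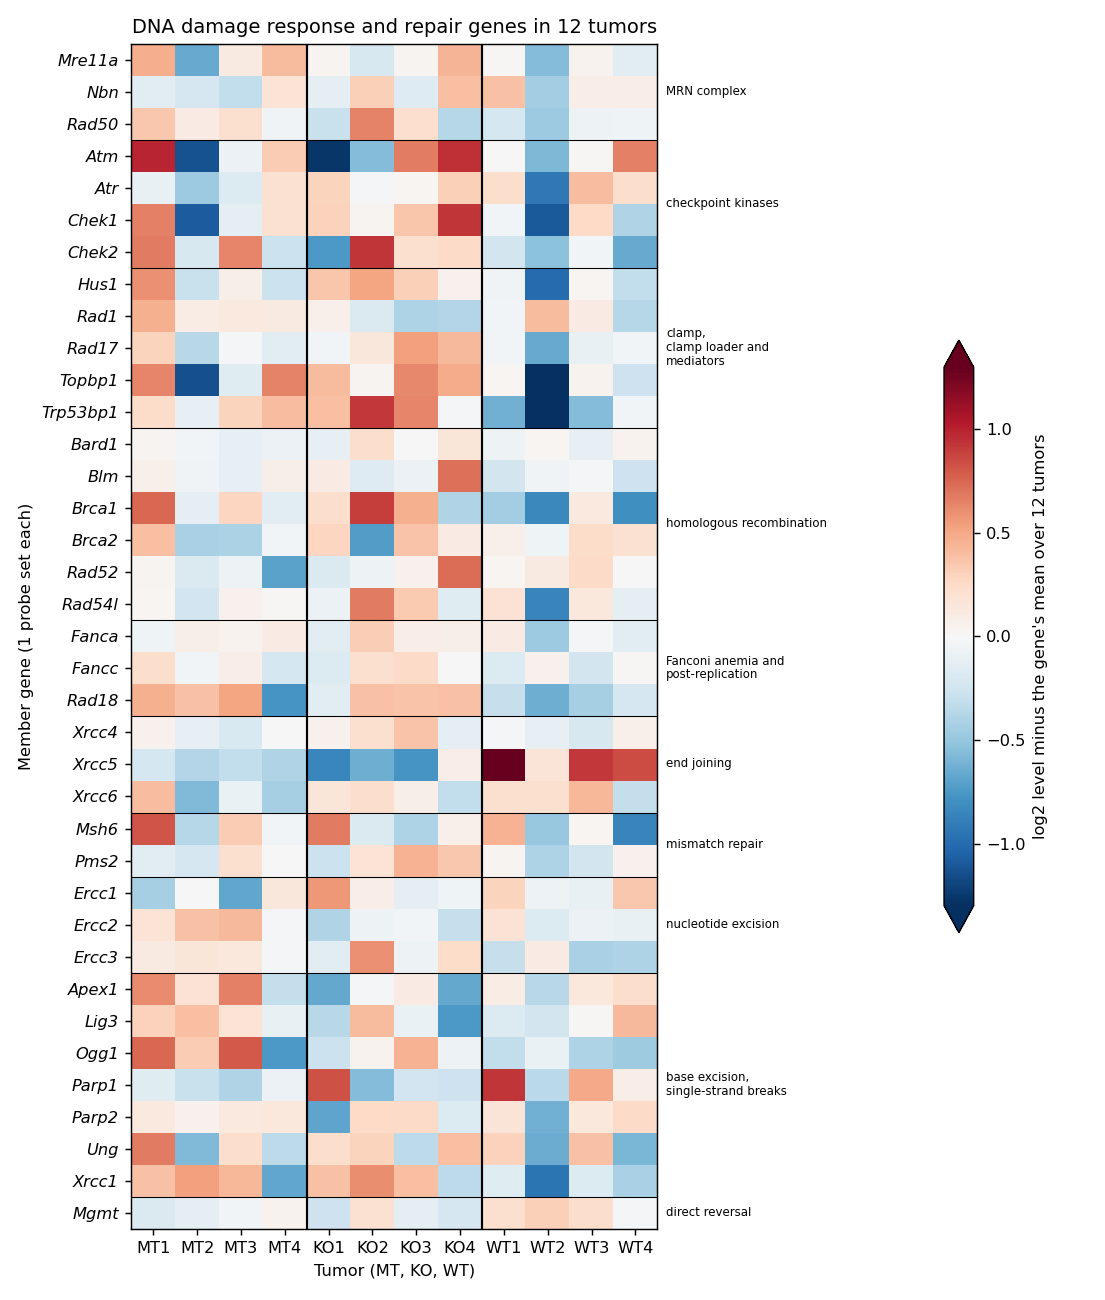
Each cell of the map is the log2 level of a member gene (rows, grouped by role) in a tumor (columns, MT, KO and WT) minus that gene's mean over the 12 tumors, red above and blue below. The WT2 column is blue in most rows, being the lowest tumor for 14 of 37 genes, and the Xrcc5 row parts WT tumors from the others.

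The tumors of a genotype differed widely in these genes. The mean level over the 37 genes was 7.76, 7.30, 7.55 and 7.40 in MT1 to MT4, 7.43, 7.64, 7.61 and 7.56 in KO1 to KO4, and 7.53, 7.07, 7.52 and 7.39 in WT1 to WT4. MT1 was the highest and WT2 the lowest of the 12, and the 3 genotypes overlapped. The same tumors stood at the ends for 27 DNA replication genes, at 8.63 in MT1 and 7.51 in WT2, and MT2 (7.51) and WT2 (7.65) were lowest for 21 mitosis genes. Whether the low repair levels of WT2 go with the share of dividing cells was not tested. Between genotypes, none of the 27 replication genes passed the test in any comparison, and of the 21 mitosis genes Cenpe, a kinesin of the centromere, rose in KO against WT tumors (1.24 (SE 0.23, adjusted p = 0.0196)). The spread between tumors of a genotype was wider for the members than for genes at large, with a median pooled SD of 0.37 over the 37 genes and 0.27 over all genes. It was not particular to the members. The median SE of a difference was 0.24 for the members and 0.19 for all genes. For the replication and mitosis genes it was 0.28 and 0.26.

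**Figure D2:**
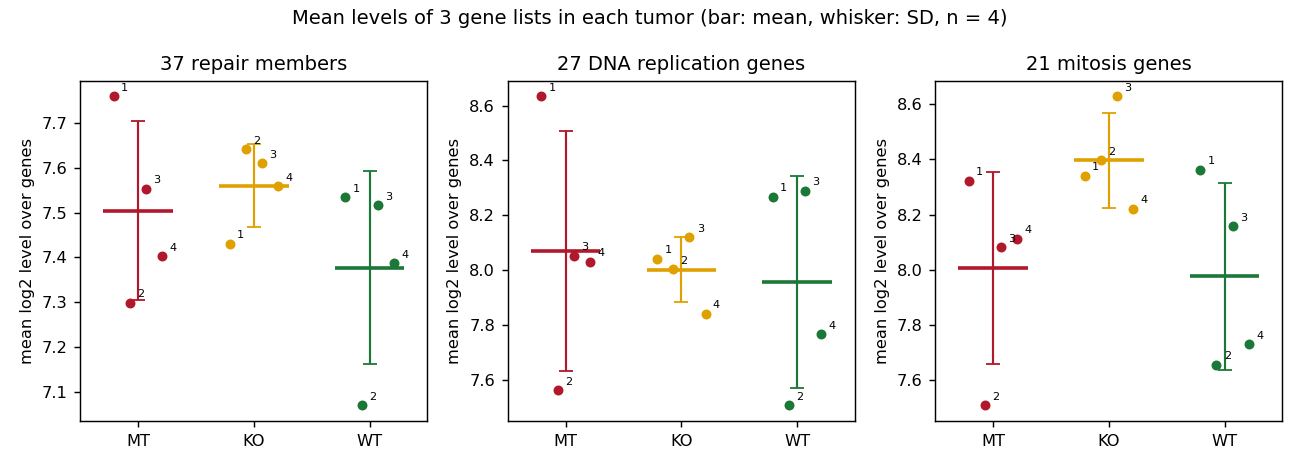
Points are the mean log2 level over the genes of a list in each tumor, numbered within its genotype, with the mean and SD of the 4 tumors as bar and whisker, for the 37 repair members, 27 DNA replication genes and 21 mitosis genes. WT2 is low in all 3 lists (7.07, 7.51 and 7.65) and MT1 is highest in the repair and replication lists (7.76 and 8.63).

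End joining held the member with the largest difference. Xrcc5 encodes Ku80, which with the product of Xrcc6, Ku70, forms the ring that grips a broken DNA end and recruits the joining enzymes. Its level was 5.93, 5.77, 5.83 and 5.76 in MT1 to MT4, 5.31, 5.52, 5.39 and 6.24 in KO1 to KO4, and 7.69, 6.32, 7.07 and 7.00 in WT1 to WT4. Every WT tumor lay above every KO and MT tumor, and WT1 was the highest. Xrcc5 fell in KO against WT tumors by 1.41 on the log2 scale, a 2.65-fold lower level (SE 0.27, adjusted p = 0.0199). MT minus WT was -1.20 (SE 0.27, adjusted p = 0.0701), short of the threshold. Within the poly-A batch of 9 tumors, where MT4 is the only MT tumor, it was -1.26. MT minus KO was 0.21 (SE 0.27, adjusted p = 0.875).

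The Xrcc5 call for KO against WT was lost without KO3 (-1.33, adjusted p = 0.0527) and without WT3 (-1.39, adjusted p = 0.0577), and MT minus WT passed without WT2 (-1.43, adjusted p = 0.0268). Without WT1, the tumor with high lymphocyte markers, KO minus WT was -1.18 (adjusted p = 0.0489). The acinar markers parted WT tumors from the others in the same way as Xrcc5, and 18S RNA was at 6.41 to 7.66 in MT tumors, 7.36 to 8.03 in KO tumors and 7.51 to 9.33 in WT tumors. Their part in the result was not tested.

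The partner of Ku80 did not pass the test. Xrcc6 was at 8.38, 7.40, 7.89 and 7.55 in MT1 to MT4, 8.14, 8.21, 8.06 and 7.66 in KO1 to KO4, and 8.19, 8.18, 8.41 and 7.67 in WT1 to WT4, and the genotypes overlapped, with KO minus WT at -0.10 (SE 0.23, adjusted p = 0.834). Xrcc4, which holds the ligase of end joining at the break, was at 7.14, 6.97, 6.89 and 7.09 in MT1 to MT4, 7.13, 7.29, 7.45 and 6.95 in KO1 to KO4, and 7.05, 6.97, 6.88 and 7.14 in WT1 to WT4. KO3 was the highest of these, and KO minus WT was 0.20 (SE 0.12, adjusted p = 0.351) and MT minus KO -0.19 (SE 0.12, adjusted p = 0.688). Of 12 other genes of end joining and of synthesis across lesions, none passed the test in any comparison.

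Trp53bp1 was the only member that rose in KO against WT tumors. It encodes a chromatin protein that gathers at double-strand breaks, shields the ends from resection and so favors end joining over recombination, and it was first found as a protein that binds p53. At 1 of its 2 probe sets the level was 9.26, 8.91, 9.31 and 9.42 in MT1 to MT4, 9.41, 9.94, 9.66 and 8.99 in KO1 to KO4, and 8.40, 7.49, 8.46 and 8.98 in WT1 to WT4. Every KO tumor lay above every WT tumor, but the gap between KO4 (8.99) and WT4 (8.98) was small, and WT2 was the lowest of all 12. Trp53bp1 rose in KO against WT tumors by 1.17, a 2.25-fold higher level (SE 0.29, adjusted p = 0.0443).

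MT minus WT at this probe set was 0.89 (SE 0.29, adjusted p = 0.146), and MT minus KO was -0.27 (SE 0.29, adjusted p = 0.831). The other probe set gave 8.57, 8.16, 8.69 and 8.26 in MT1 to MT4, 8.47, 8.78, 8.72 and 8.02 in KO1 to KO4 and 7.93, 7.11, 7.99 and 8.03 in WT1 to WT4. All MT tumors lay above all WT tumors there, while KO4 lay within the WT range, and KO minus WT was 0.73 (SE 0.23, adjusted p = 0.0905). The call rests close to the threshold. It held without KO4 (adjusted p = 0.0400) and without WT4 (adjusted p = 0.0210), and was lost without any other single tumor, at adjusted p of 0.0512 to 0.101, with 0.89 as the difference without WT2 (adjusted p = 0.0589). It was also lost after quantile normalization (1.07, adjusted p = 0.0545) and in a fit to the KO and WT tumors alone (adjusted p = 0.0969). With the poly-A batch as a block it was lost too (1.17, adjusted p = 0.0512). For KO minus WT that block gives the same fit as leaving out MT4, so this is not a separate loss.

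**Figure D3:**
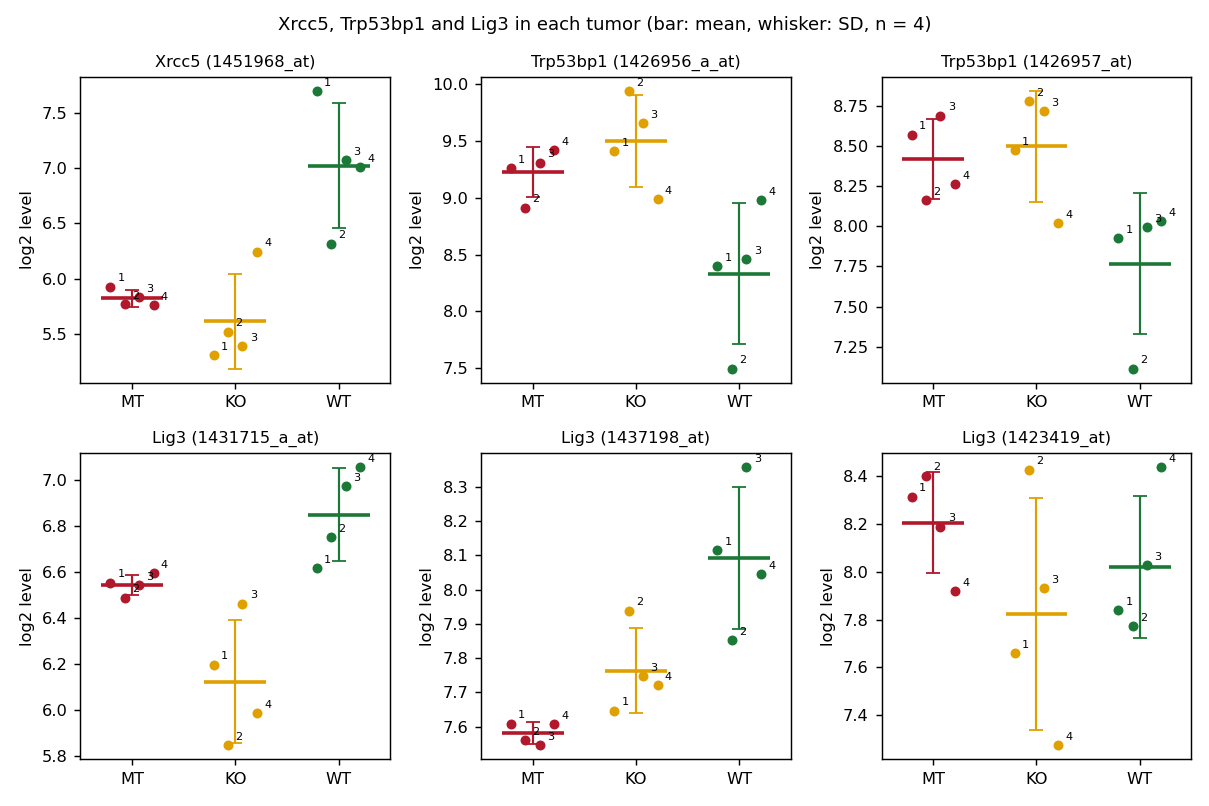
Points are log2 levels of the 12 tumors at probe sets of Xrcc5, Trp53bp1 and Lig3, numbered within genotype, with the mean and SD of 4 tumors as bar and whisker (vertical scales differ between panels). Xrcc5 is lower in MT and KO than in WT tumors, Trp53bp1 is higher in KO than in WT tumors, and the 3 probe sets of Lig3 do not order the genotypes alike.

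The sensors and kinases that start the signal did not pass the test. In the MRN complex, which binds broken ends and activates Atm, Rad50, its long coiled-coil arm, was at 8.45, 8.21, 8.31 and 8.05 in MT1 to MT4, 7.81, 8.75, 8.32 and 7.73 in KO1 to KO4, and 7.87, 7.63, 8.04 and 8.04 in WT1 to WT4. All MT tumors lay above all WT tumors at this probe set, by a margin of less than 0.01 between MT4 and WT4, and the KO tumors overlapped both. KO minus WT was 0.26 (SE 0.21, adjusted p = 0.484) and MT minus WT 0.36 (SE 0.21, adjusted p = 0.37). Nbn, the adaptor of the complex, had MT minus KO of -0.22 (SE 0.20, adjusted p = 0.782), and Mre11a, its nuclease, KO minus WT of 0.24 (SE 0.25, adjusted p = 0.594).

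Among the checkpoint kinases, Chek1, which Atr activates at stalled replication forks, was at 8.23, 6.51, 7.47 and 7.78 in MT1 to MT4, 7.88, 7.62, 7.95 and 8.51 in KO1 to KO4, and 7.55, 6.49, 7.84 and 7.19 in WT1 to WT4. MT2 and WT2 were the lowest and KO4 the highest, and KO minus WT was 0.72 (SE 0.37, adjusted p = 0.264). The other probe sets of Chek1 gave KO minus WT of -0.20 to 0.62. Chek2, the kinase that Atm activates, was at 8.14, 7.26, 8.10 and 7.18 in MT1 to MT4, 6.71, 8.39, 7.67 and 7.71 in KO1 to KO4, and 7.22, 6.92, 7.42 and 6.81 in WT1 to WT4. KO1 was the lowest and KO2 the highest of the 12, so that the KO tumors spanned the MT and WT tumors, and MT minus WT was 0.58 (SE 0.34, adjusted p = 0.372). Atm had the widest spread within genotypes of all members, by the pooled SD, at 8.09, 5.96, 7.02 and 7.43 in MT1 to MT4, 5.83, 6.53, 7.76 and 8.05 in KO1 to KO4, and 7.10, 6.51, 7.11 and 7.75 in WT1 to WT4. Its values ran over more than 2 log2 units within both MT and KO tumors, and its differences were -0.07 for KO minus WT, 0.00 for MT minus WT and 0.08 for MT minus KO (SE 0.54). Atr had KO minus WT of 0.17 (SE 0.26, adjusted p = 0.735).

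The ring-shaped 9-1-1 clamp, its loader and the mediators around them gave higher means in KO than in WT tumors for 4 of 5 genes. Hus1, a subunit of the clamp, was at 8.21, 7.32, 7.69 and 7.34 in MT1 to MT4, 7.97, 8.13, 7.92 and 7.67 in KO1 to KO4, and 7.57, 6.61, 7.64 and 7.30 in WT1 to WT4. All KO tumors lay above all WT tumors, and KO minus WT was 0.64 (SE 0.25, adjusted p = 0.146), but its other probe set gave -0.30 (SE 0.13, adjusted p = 0.181), of opposite sign. Rad17, which loads the clamp, had KO minus WT of 0.47 (SE 0.19, adjusted p = 0.159), and Topbp1, which activates Atr at the clamp, 0.77 (SE 0.40, adjusted p = 0.269). Rad1, a second subunit of the clamp, ran the other way, at 7.95, 7.58, 7.61 and 7.60 in MT1 to MT4, 7.55, 7.30, 7.08 and 7.11 in KO1 to KO4, and 7.45, 7.90, 7.59 and 7.11 in WT1 to WT4. Every MT tumor lay above every KO tumor, and WT tumors overlapped both, with MT minus KO of 0.43 (SE 0.17, adjusted p = 0.456). Of 9 other genes of damage signaling, none passed the test in any comparison.

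In homologous recombination Brca1, which directs the break toward resection, had the smallest p in both comparisons with WT tumors. At its brightest probe set it was at 8.16, 7.29, 7.69 and 7.27 in MT1 to MT4, 7.64, 8.31, 7.87 and 7.02 in KO1 to KO4, and 6.96, 6.57, 7.54 and 6.62 in WT1 to WT4. KO2 and MT1 were the highest and WT2 and WT4 the lowest, and the genotypes overlapped through KO4 and WT3. KO minus WT was 0.79 (SE 0.30, adjusted p = 0.145) and MT minus WT 0.68 (SE 0.30, adjusted p = 0.251), while its 3 other probe sets gave KO minus WT of -0.29 to 0.12. At 1 of these, all MT tumors (5.69 to 5.90) lay above all WT tumors (5.21 to 5.67) by a margin of about 0.02, and MT minus WT was 0.29 (SE 0.12, adjusted p = 0.226). Rad52, an annealing protein of single strands, was at 6.39, 6.17, 6.29 and 5.66 in MT1 to MT4, 6.16, 6.29, 6.41 and 7.08 in KO1 to KO4, and 6.38, 6.48, 6.60 and 6.35 in WT1 to WT4, with KO4 far above and MT4 below the other tumors, and MT minus KO was -0.36 (SE 0.21, adjusted p = 0.63). Brca2, Bard1, Blm and Rad54l had KO minus WT of -0.10 to 0.36 at their brightest probe sets. Of 10 other recombination and Fanconi genes, Fancl, a ubiquitin ligase subunit of the Fanconi pathway, fell in KO against WT tumors (-0.76 (SE 0.17, adjusted p = 0.0354)), and the other 9 did not pass.

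Rad18 is the ubiquitin ligase that marks the sliding clamp when a replication fork meets a lesion. At the brighter of its 2 probe sets, both of them dim, it was at 6.69, 6.62, 6.75 and 5.46 in MT1 to MT4, 6.09, 6.61, 6.61 and 6.61 in KO1 to KO4, and 5.93, 5.60, 5.80 and 6.02 in WT1 to WT4. All KO tumors lay above all WT tumors, and MT1, MT2 and MT3 did too, but MT4 was the lowest of the 12. KO minus WT was 0.64 (SE 0.26, adjusted p = 0.16) and MT minus WT 0.54 (SE 0.26, adjusted p = 0.28). MT4 is also the MT tumor whose poly-A controls were low, and without MT4 KO minus WT passed the test with the same difference and a smaller SE (adjusted p = 0.0332), as did MT minus WT at 0.85 (adjusted p = 0.0194). With the poly-A batch as a block, so that MT minus WT rests on MT4 alone, it was -0.37. Genotype and batch cannot be told apart in MT1, MT2 and MT3. At the other Rad18 probe set the KO and WT tumors overlapped, MT2 (5.99) lay within the WT range and WT1 (5.63) was the lowest of the 12. There KO minus WT was 0.34 (SE 0.21, adjusted p = 0.356) and MT minus WT 0.31 (SE 0.21, adjusted p = 0.433). Fanca and Fancc, of the Fanconi core complex, had KO minus WT of 0.22 and 0.16 and no call.

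Base excision repair and the sealing of single-strand breaks held the third call. Lig3 encodes DNA ligase III, which works with Xrcc1 at nicks and is also the ligase of mitochondria. At 1 of its 5 probe sets it was at 6.55, 6.49, 6.54 and 6.59 in MT1 to MT4, 6.20, 5.85, 6.46 and 5.99 in KO1 to KO4, and 6.62, 6.75, 6.97 and 7.05 in WT1 to WT4. All KO tumors lay below all MT tumors, and all MT tumors lay below all WT tumors. The margins were small, with KO3 (6.46) close to MT2 (6.49) and MT4 (6.59) close to WT1 (6.62). Lig3 fell in KO against WT tumors at this probe set by 0.73 on the log2 scale, a 1.65-fold lower level (SE 0.14, adjusted p = 0.0214), with MT minus WT of -0.30 (SE 0.14, adjusted p = 0.269) and MT minus KO of 0.42 (SE 0.14, adjusted p = 0.369). The call was lost without KO2 (-0.63, adjusted p = 0.0512) and without WT3 (-0.68, adjusted p = 0.0664).

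The 4 other probe sets of Lig3 gave KO minus WT of -0.52 to 0.07, with no call. At a further probe set, the levels were 7.61, 7.56, 7.55 and 7.61 in MT1 to MT4, 7.65, 7.94, 7.75 and 7.72 in KO1 to KO4, and 8.12, 7.85, 8.36 and 8.04 in WT1 to WT4. The MT tumors were tightly grouped below every KO and WT tumor, and MT minus WT was -0.51 (SE 0.11, adjusted p = 0.0703), just short of the threshold. It passed when each array was centered on its median (-0.57, adjusted p = 0.0498) or quantile normalized (-0.59, adjusted p = 0.0440), and without WT2 (-0.59, adjusted p = 0.0375). It did not pass with a mean-variance trend (adjusted p = 0.116) or among the brighter probe sets alone (adjusted p = 0.111). With the poly-A batch as a block, where MT rests on MT4 alone, it was -0.49. The lowest adjusted p over all alternatives run was 0.00301 (array weights). At the brightest probe set of Lig3, MT, KO and WT tumors overlapped, with KO minus WT of -0.20 (SE 0.23, adjusted p = 0.647).

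The MT4 tumor stood apart in several members of this role, which were picked after their values were seen. Ogg1, the glycosylase that removes oxidized guanine, was at 7.83, 7.40, 7.87 and 6.33 in MT1 to MT4, 6.79, 7.12, 7.53 and 7.01 in KO1 to KO4, and 6.76, 6.99, 6.68 and 6.62 in WT1 to WT4. MT1, MT2 and MT3 lay above every WT tumor, whereas MT4 was the lowest of the 12, and the other Ogg1 probe set placed the MT tumors in the same way (7.06, 6.94, 7.48 and 5.87 in MT1 to MT4). MT minus WT was 0.60 (SE 0.30, adjusted p = 0.299) and 0.80 (SE 0.28, adjusted p = 0.161) at these probe sets, and without MT4 0.94 (adjusted p = 0.0266) and 1.13 (adjusted p = 0.00924), where all 3 MT tumors left have bright poly-A controls. With the poly-A batch as a block, so that MT minus WT rests on MT4 alone, the differences turned to -0.43 and -0.17. Xrcc1, the scaffold on which nicks are sealed, was at 8.16, 8.32, 8.21 and 7.10 in MT1 to MT4, 8.16, 8.39, 8.18 and 7.44 in KO1 to KO4, and 7.63, 6.83, 7.60 and 7.36 in WT1 to WT4, with MT4 and WT2 the lowest and KO minus WT of 0.69 (SE 0.30, adjusted p = 0.185). Its MT minus WT was 0.59, and -0.25 with the poly-A batch as a block.

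Parp1, which detects nicks and marks the site with poly(ADP-ribose), was at 7.56, 7.40, 7.55 and 8.69 in MT1 to MT4, 9.76, 8.15, 8.21 and 8.27 in KO1 to KO4, and 9.39, 8.22, 9.18 and 8.71 in WT1 to WT4 at 1 of its 3 probe sets. MT1, MT2 and MT3 were the lowest of the 12 and MT4 lay among the KO and WT tumors at this probe set. At the other probe sets, both brighter, MT4 was 0.079 above the highest of the other MT tumors or lay among them. MT minus WT was -1.08 (SE 0.41, adjusted p = 0.194) at the first probe set, and -0.52 and -0.40 at the brighter ones. The gap between MT4 and the other MT tumors runs with the poly-A controls, whose part was not tested. Apex1, which cuts the strand at a site without a base, had MT minus KO of 0.60 (SE 0.25, adjusted p = 0.476). With the poly-A batch as a block, where MT rests on MT4 alone, it was 0.0016. Ung, which removes uracil, and Parp2, a relative of Parp1, had KO minus WT of 0.28 and -0.07.

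**Figure D4:**
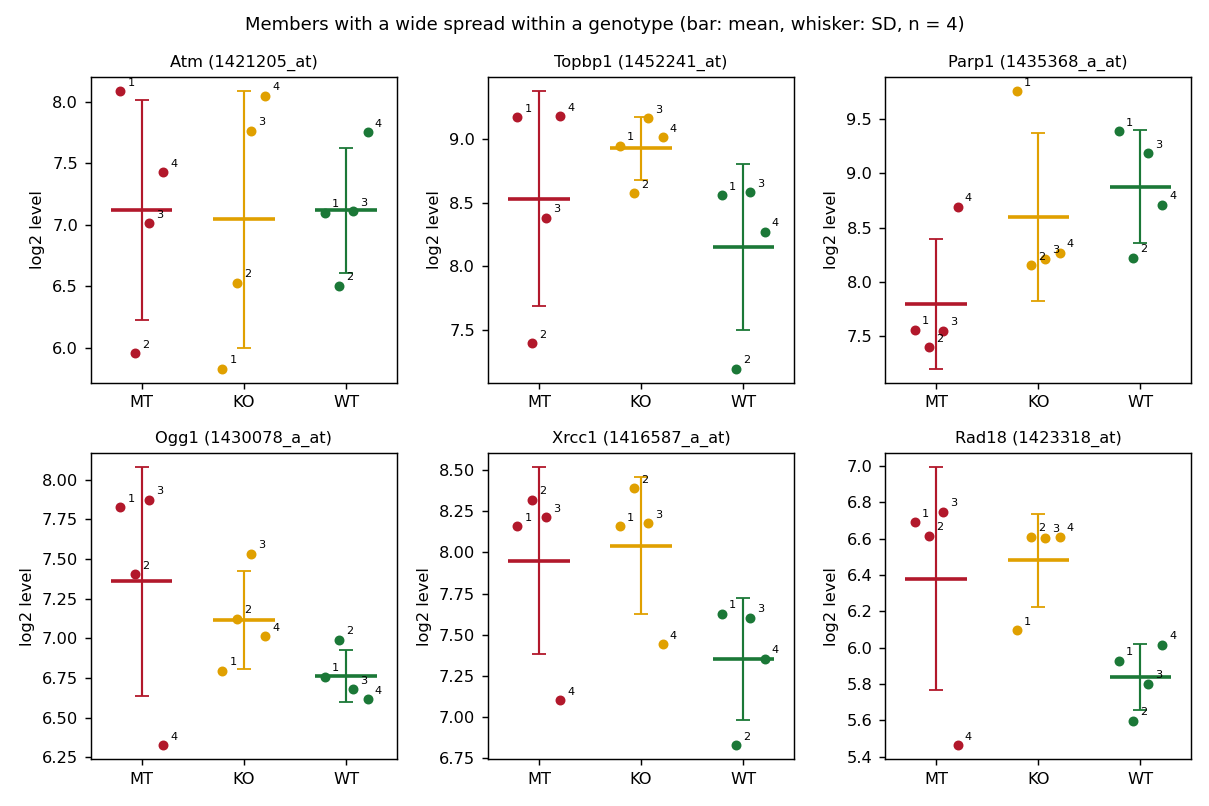
Points are log2 levels of the 12 tumors for 6 members with a wide spread within a genotype, numbered within genotype, with the mean and SD of 4 tumors as bar and whisker (vertical scales differ). Atm ranges from 5.83 in KO1 to 8.09 in MT1, and MT4 is apart from MT1, MT2 and MT3 for Ogg1, Xrcc1 and Rad18 and for Parp1 at the probe set drawn, the dimmest of its 3.

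No member of nucleotide excision or mismatch repair passed the test. Ercc2, a helicase of the factor that opens DNA around bulky lesions, was at 7.79, 7.99, 8.04 and 7.58 in MT1 to MT4, 7.22, 7.55, 7.58 and 7.31 in KO1 to KO4, and 7.80, 7.44, 7.54 and 7.52 in WT1 to WT4. Every MT tumor lay above every KO tumor, by a margin of about 0.001 between MT4 and KO3, and MT minus KO was 0.43 (SE 0.14, adjusted p = 0.334). Ercc3, the second helicase of that factor, was at 8.09 to 8.26 in MT tumors, 7.95 to 8.71 in KO tumors and 7.69 to 8.22 in WT tumors, with KO minus WT of 0.41 (SE 0.17, adjusted p = 0.175). Ercc1, part of the nuclease that cuts 5′ of the lesion, had KO minus WT of 0.00 (SE 0.21). Of 19 other genes of excision and direct reversal, Xpc, which recognizes distorted DNA and is known as a target of human p53, rose in KO against WT tumors (0.82 (SE 0.20, adjusted p = 0.045)). Xpc was at 7.58, 7.65, 7.97 and 7.12 in MT1 to MT4, 7.48, 7.81, 8.22 and 7.77 in KO1 to KO4, and 6.80, 7.28, 6.78 and 7.14 in WT1 to WT4, and every KO tumor lay above every WT tumor.

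In mismatch repair, Pms2, which nicks the strand to be corrected, was at 7.03 to 7.45 in MT tumors, 6.97 to 7.70 in KO tumors and 6.85 to 7.31 in WT tumors, with KO minus WT of 0.31 (SE 0.17, adjusted p = 0.302). Msh6, which binds the mispaired base, was at 8.54, 7.35, 8.05 and 7.69 in MT1 to MT4, 8.40, 7.54, 7.32 and 7.79 in KO1 to KO4, and 8.18, 7.23, 7.75 and 6.87 in WT1 to WT4, with MT1 the highest and WT4 the lowest and MT minus WT of 0.40 (SE 0.33, adjusted p = 0.533). Mgmt, which takes alkyl groups off guanine, was at 6.48, 6.55, 6.64 and 6.72 in MT1 to MT4, 6.40, 6.86, 6.55 and 6.45 in KO1 to KO4, and 6.88, 6.98, 6.90 and 6.65 in WT1 to WT4. KO2 and MT4 reached the WT range, and the other KO and MT tumors lay below every WT tumor. KO minus WT was -0.28 (SE 0.12, adjusted p = 0.185) and MT minus WT -0.25 (SE 0.12, adjusted p = 0.28).

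**Figure D5:**
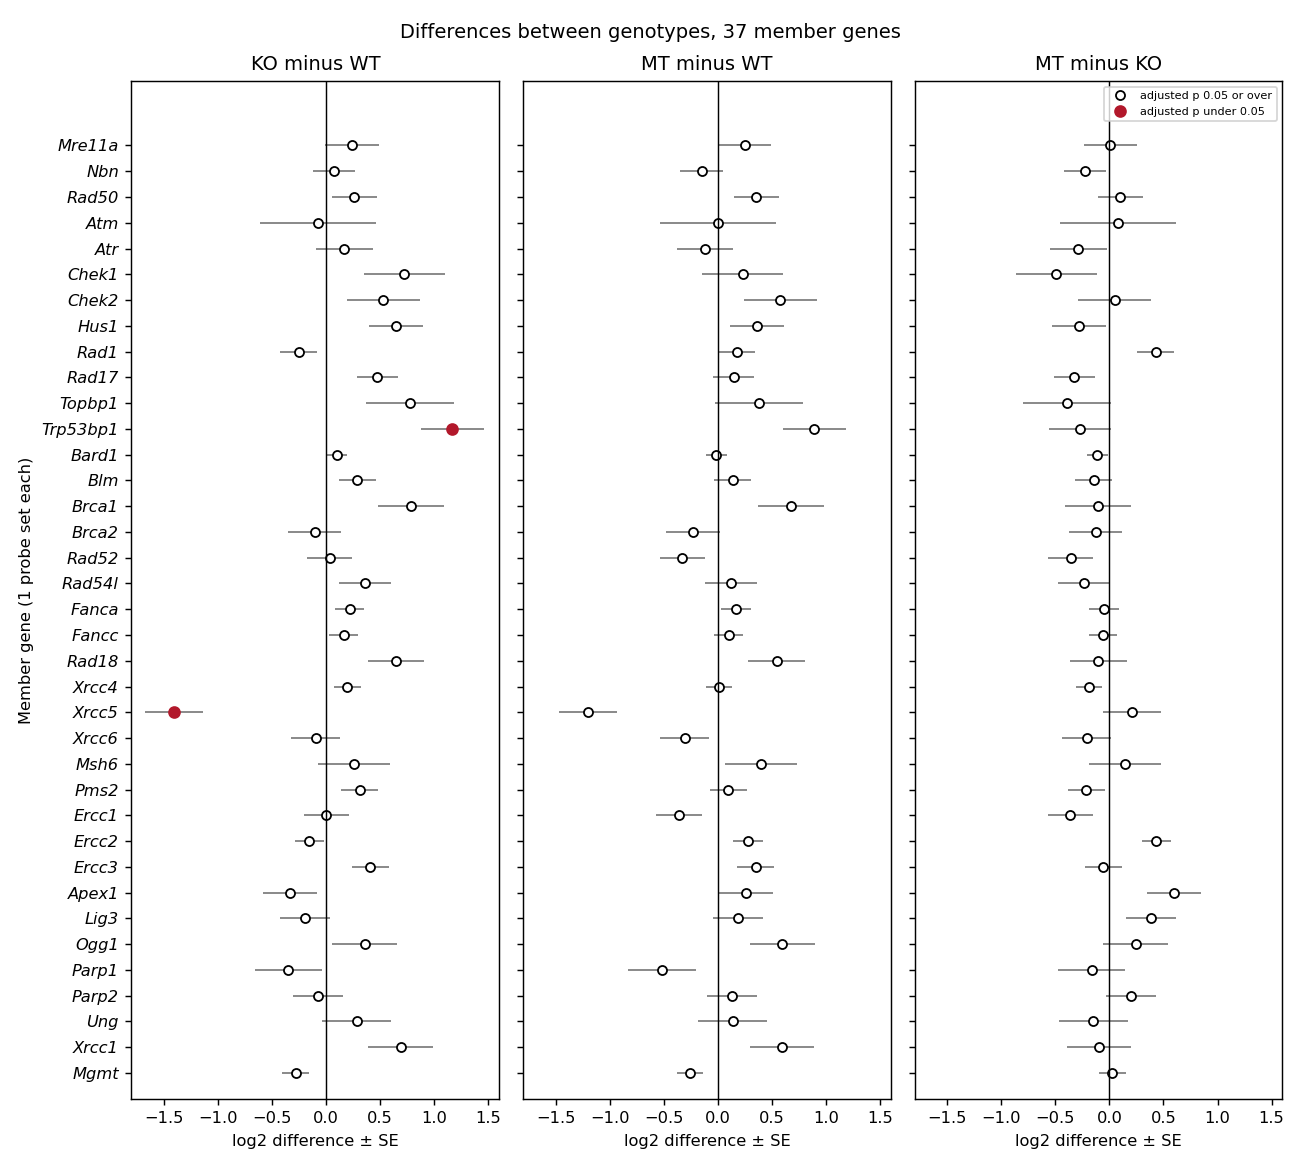
Points are log2 differences of the 37 member genes, 1 probe set each and ordered by role, for KO minus WT, MT minus WT and MT minus KO, with bars of 1 SE. Filled points passed the adjusted threshold: Xrcc5 (-1.41) and Trp53bp1 (1.17) in KO minus WT and none in the other comparisons, and the called probe set of Lig3 is not its brightest and so is not drawn.

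Between the tumors with mutant p53 and those without p53, no member passed. Differences over the 37 genes, at 1 probe set each, ran from -0.49 (Chek1) to 0.60 (Apex1). The other probe sets of these genes gave -0.22 to 0.16 for Chek1 and 0.24 and 0.46 for Apex1. With the poly-A batch as a block, MT rests on MT4 alone, since MT1, MT2 and MT3 make up the other batch. MT minus KO then changed sign at 17 of 62 member probe sets, and MT minus WT at 17, so these changes set MT4 against the mean of all MT tumors. In the levels themselves, 4 of 62 member probe sets did not overlap between MT and KO tumors (6.45%, against 4.85% of all probe sets). These were Rad1, Ercc2 and 2 probe sets of Lig3, of which 1 was higher in MT (0.42) and 1 lower (-0.18). The smallest p of their roles in this comparison, none near the threshold, fell also on Chek1 at a dim probe set (-0.22 (SE 0.14, adjusted p = 0.651)), Pms2 (-0.21 (SE 0.17, adjusted p = 0.761)), the dimmer Fanca probe set (0.11 (SE 0.14, adjusted p = 0.873)) and Mgmt (0.03 (SE 0.12, adjusted p = 0.973)). The median SE over the 37 genes was 0.24, and a call needed several SE, as Ercc2 at 0.43 (SE 0.14, adjusted p = 0.334) did not pass. Differences well above the median SE could thus be missed with 4 tumors against 4. The lack of a call does not show that the tumors were alike. Of the other groups that did not overlap, KO and WT tumors were apart at 6 of 62 member probe sets (9.68%, against 14.5% of all) and MT and WT tumors at 8 of 62 (12.9%, against 10.9%).

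Probe sets of the same gene did not always run together. Of the 15 genes with more than 1 probe set, 8 had the same sign at every probe set for KO minus WT and 7 had both signs, and the split was the same, 8 and 7, for MT minus WT.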

How the data were processed

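RNA of 12 salivary tumors, 4 per p53 genotype, was hybridized to Affymetrix mouse arrays, 1 per tumor. The deposited values are on a log2 scale and were made, by the methods of the study, with RMA (background correction, quantile normalization and median polish) in BRB-ArrayTools. The submitters' processing notes name RMA and MAS5, with no role or version. Quantile normalization brings arrays to like distributions, so that a shift common to most genes would not be seen. No step was added before the main test. Intensity files were not analysed here.

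The table holds 22690 probe sets, of which 64 are array controls and the other 22626 entered the tests. The platform annotation gave 20380 of them 1 gene symbol, 691 several and 1555 none, and no gene was named from a probe set with several. Trp53, which that table does not list, was found through the probe set names in the study's list of genes that differ between the genotypes. A mean per genotype was fitted with limma 3.58.1 under R 4.3.3 to the 12 tumors together, which leaves 9 residual degrees of freedom, and tested 2-sided by eBayes with Benjamini-Hochberg adjustment. The SAM method of the study's class comparisons was not run here. The steps were tested on simulated data. Arrays give no read depth, and their number, 4 per genotype, limits the precision. Promoters came from RefSeq tables and motifs and figures were made with Python 3.11.15, numpy 2.4.6, pandas 2.3.3 and matplotlib 3.10.9.

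The members, lists, tests and alternatives were chosen with earlier results of these data known. Members described in full are those called, the one with the smallest p of each role in each comparison, and those said to be picked after their values were seen. Other members are given by counts, ranges or differences. No source used here names a labeling batch, and the poly-A batch is read from the control probe sets alone. As alternatives, dim probe sets were filtered out, and the fit was repeated with centering, quantile normalization, fits to 8 tumors, a mean-variance trend, array weights, an ordinary t-test, which the study also used, other thresholds, blocks for the tumor number and the poly-A batch, the hybridization controls as a covariate, 1 probe set per gene and each tumor left out. Same-numbered tumors were correlated above 0.1 in 6 of 12 pairs, and all the correlations were positive (0.0023 to 0.335). Tumors of unlike number were not correlated for contrast, so this does not decide whether the numbers mark pairs. The sample titles give them only as replicate numbers, and the main test did not take them as pairs.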

Additional observations from a re-analysis of the deposited data

Results flagged for a closer look

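A tumor far from the other 3 of its genotype was looked for at the 21 probe sets named by the rule, in 63 groups of 4 tumors, and 4 groups held such a tumor. Chance alone gives about 1 in 20 groups of this kind. At Rad18 MT4 was at 5.46 and the other MT tumors at 6.62 to 6.75, and KO1 was at 6.09 and the other KO tumors at 6.61. At Rad1 MT1 was at 7.95 and the other MT tumors at 7.58 to 7.61. At the dimmer probe set of Fanca KO1 was at 4.80 and the other KO tumors at 5.16 to 5.21.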

How the results depend on the processing

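The differences of KO minus WT for Xrcc5 (-1.64 to -1.18), Trp53bp1 (0.89 to 1.38) and Lig3 (-0.84 to -0.63) kept their direction under every alternative run. The call was lost in 5 of 25, 16 of 26 and 6 of 24 of them. These counts take the poly-A block and the fit without MT4 separately, though they are the same fit for KO minus WT. Against 3 members called for KO minus WT, 1 was called without dim probe sets (4.94% of all), where the called Xrcc5 and Lig3 probe sets were not tested, 0 in fits to the 8 tumors compared (1.65%), 6 with array weights (14.5%), 0 by the ordinary t-test (0.0442%) and 0 at an adjusted p under 0.01 (0.27%), and 0 (without WT3, 0.866% of all) to 3 with a tumor left out, with 1 without KO2 (2%) and 1 without KO3 (1.77%). Over all probe sets, 1035 were called for KO minus WT (4.57%), 196 without WT3 and 3280 with array weights. Against 0 for MT minus WT, 1 was called with arrays centered (0.65% of all), 1 after quantile normalization (0.579%), 13 with array weights (4973 over all probe sets, 22%) and 2 at an adjusted p under 0.1 (2.73%), and 0 to 3 with a tumor left out, 3 without MT4 (3.54%) and 2 without WT2 (1.22%). For MT minus KO the count was 0 in all. The fewer calls without a tumor or with 8 tumors come with fewer samples, and for array weights the cause was not tested. In the replicate block, tumor numbers were taken as pairs. It called 2 members for KO minus WT and none in the other comparisons, and Trp53bp1 lost its call (adjusted p = 0.0703). Trp53bp1 also lost its call with the poly-A batch as a block (adjusted p = 0.0512), where Rad18 was called (adjusted p = 0.0332). For KO minus WT this block gives the same fit as leaving out MT4.

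With the poly-A batch as a block, where MT rests on MT4 alone, MT minus WT changed sign at 17 of 62 member probe sets and MT minus KO at 17. Among the members named by the rule, MT minus WT of Rad18 turned to -0.37, and MT minus KO of Nbn to 0.079 and of Fanca to -0.043. MT minus KO of Mgmt, 0.03, became -0.00074 with array weights, -0.012 without MT4, -0.028 without KO1 and -0.010 without KO4 (-0.028 to 0.13 with a tumor left out). For Mgmt the cause was not tested.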
